A study of Mus musculus with 12 samples.

Results

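The genes described here encode glycosyltransferases, which join sugars into the glycan chains of proteins and lipids, and the sulfotransferases that sulfate those chains. They were picked by gene symbol: a probe set was a member where its single symbol belonged to the Galnt, St3gal, St6gal, St8sia, B3g, B4gal, Fut, Mgat, Gcnt, Chst, Hs2st, Hs3st, Hs6st, Ndst, Ext, Extl, Chsy, Csgalnact, Has, Xylt or Pomt families or was Ugcg. This gave 83 genes, each with 1 probe set, of the 9539 genes with values on the arrays. In the RefSeq gene table (GRCm38.p6) 140 protein-coding symbols fit the same pattern, and the other 57 were not analysed here. The deposited table held only probe sets that varied between arrays, and the least variable member still spanned 0.70 log2 units over the 12 arrays, so each count of members is read against the same count over all 9539 genes.

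RNA from 4 kinds of mouse cell was hybridised to Affymetrix whole-transcript arrays, with 3 arrays per group, to follow fibroblasts towards pluripotency with the factors Oct4 and Tet1. The iPS line, at passage 10, had been induced with Oct4 and Tet1 on the OG2-GFP/Rosa26-M2rtTA background, in which a doxycycline-responsive transactivator is driven from the Rosa26 locus and GFP reports Oct4. For ES cells, R1 at passage 20 was used, a line of strain 129. The day-1 cells were fibroblasts at passage 3 derived from mice made with the Oct4 and Tet1 iPS cells, on the OG2-GFP/Rosa26-M2rtTA background, given doxycycline in ES medium for the last 1 day. The fibroblasts were at passage 3 with no doxycycline recorded. Their background reads OG2-GFP/Rosa26-M2rtTA for replicate 1, and M3rtTA and M4rtTA stand in its place for replicates 2 and 3. The iPS and ES groups were each 1 line, both grown on mitomycin C-treated feeder fibroblasts, and removal of feeders by brief plating is recorded for the ES cells only. Separate cultures for the replicates are not recorded, so the p-values measure the spread between these samples, which may be technical.

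Glycans are built mostly in the Golgi, where each transferase takes a sugar from a nucleotide donor and adds it to 1 kind of acceptor, and sulfotransferases take sulfate from a common activated donor. Glycosaminoglycans are long chains on proteoglycans: heparan sulfate binds growth factors such as FGFs, while chondroitin and dermatan sulfate and the protein-free chain hyaluronan fill connective tissue matrix. Mouse ES cells are known for a fucosylated surface antigen, SSEA-1 (Lewis x), which stands on chains of repeated galactose and N-acetylglucosamine.

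Levels are log2 values as deposited, and differences are log2 differences with their standard errors from limma, adjusted over all 9539 genes by the Benjamini-Hochberg method. A gene was called where its adjusted p was under 0.05 and its difference was at least 1, a change of at least 2-fold. Arrays within a group correlated at 0.988 to 0.997 over all genes, and the median standard error of a member's difference was 0.097. Markers were compared with the cell labels. The linear signal summed over 8 pluripotency genes was 34045 to 34550 on iPS arrays and 37543 to 39626 on ES arrays. It was 3706 to 3989 on day-1 arrays and 284 to 355 on fibroblast arrays. In day-1 cells 1 of these 8 genes was called higher than in fibroblasts, Pou5f1, the Oct4 gene, which was 6.76 ± 0.08 higher. The same sum over 8 fibroblast genes was 10055 to 10536 on iPS arrays and 2624 to 3700 on ES arrays. It was 23452 to 24427 on day-1 arrays and 28645 to 34880 on fibroblast arrays. Against fibroblasts, all 8 were called lower in ES cells and 6 in iPS cells. Col1a1 and Col1a2 were not called in iPS cells, where their mean levels were 12.22 and 11.98. Over 6 measured macrophage genes the sums were 496 to 535 on iPS arrays, 509 to 547 on ES arrays, 1120 to 1263 on day-1 arrays and 1786 to 2201 on fibroblast arrays. A low sum need not mean expression, because no value of the deposited data was at 0 and the lowest was 2.43 in log2. The part of other cells in the results below was not tested, and in these bulk samples fewer cells of a type and less RNA per cell cannot be told apart.

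Against fibroblasts, both kinds of pluripotent cell had lower levels of most enzymes that build and sulfate glycosaminoglycans and of several sialyltransferases, and higher levels of a small set led by Fut9, B4galnt3 and B4galnt4. In iPS cells 12 of the 83 members rose (14.5%, against 21.8% of all genes) and 36 fell (43.4%, against 29.6%). In ES cells 10 rose (12%, against 23.4% of all genes) and 43 fell (51.8%, against 32.1%). The median member differed by -0.91 in iPS cells and by -1.03 in ES cells, against -0.35 for the median of all genes in each. Both comparisons use the same 3 fibroblast arrays. Because the median of all genes was itself below 0, arrays were also centred on a common median, which moved it to -0.10 for iPS cells and -0.01 for ES cells. With centred arrays 14 members rose and 28 fell in iPS cells, against 2734 and 2196 of all 9539 genes. For ES cells 15 members rose and 34 fell, against 3174 and 2293 of all genes. The share of higher calls among called members so went to 30.6% in ES cells, against 18.9% as deposited. Among all called genes that share was 58.1% with centred arrays, against 42.2% as deposited. No called member changed direction under centring or quantile normalization. Relative to the median of all genes, the median member differed by -0.56 in iPS cells and -0.69 in ES cells.

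**Figure D1:**
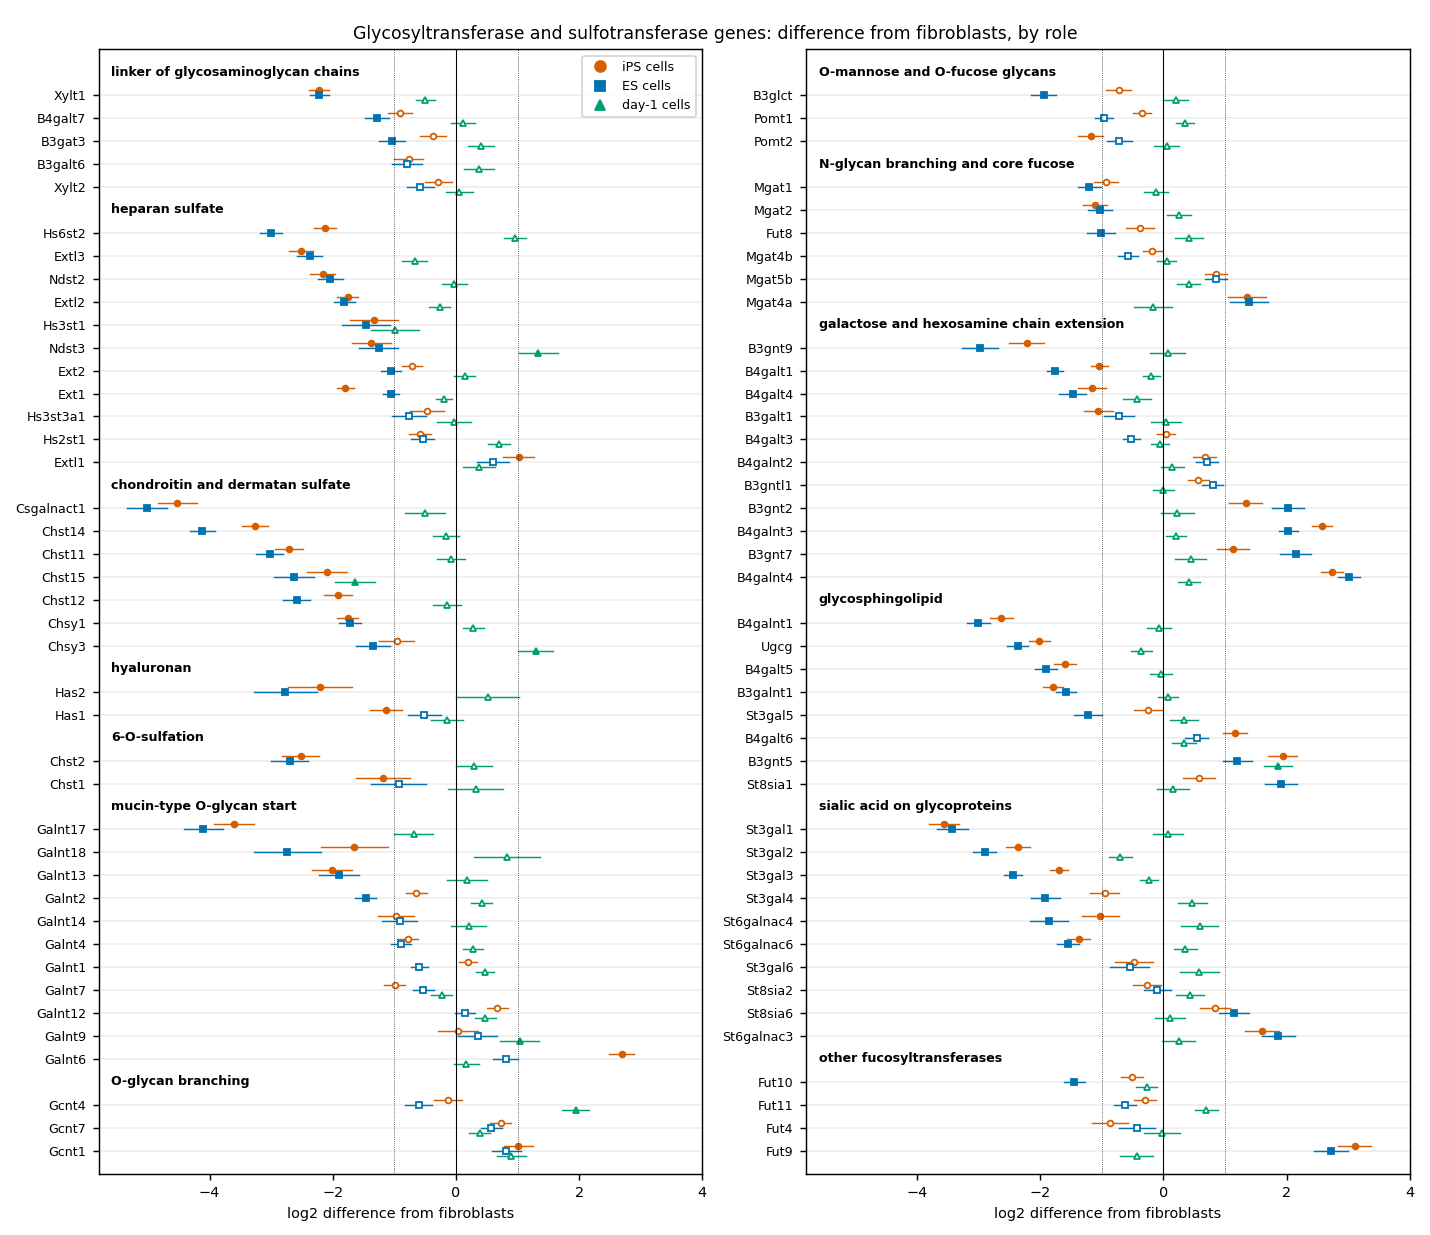
Each row is 1 of the 83 members, grouped by role, and the horizontal axis is the log2 difference from fibroblasts with its 95% interval (3 arrays per group); orange circles are iPS cells, blue squares ES cells and green triangles day-1 cells, filled where the difference was called, with dotted lines at -1 and 1. Circles and squares lie left of 0 for most glycosaminoglycan enzymes and sialyltransferases, with Csgalnact1 the farthest at -4.52 in iPS cells and -5.02 in ES cells, while Fut9, B4galnt3 and B4galnt4 lie between 2 and 4, and most triangles lie near 0.

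The promoters of 4 members are shown because they stand at opposite ends of the change: the paralogs B4galnt3 and B4galnt4, which were higher in pluripotent cells, and the sulfotransferases Chst11 and Chst14, which were lower. RefSeq promoter windows (GRCm38.p6, 250 bases before to 50 after a start) matched 64 of the 83 members, with 81 windows. Capitals mark 2 motifs searched on both strands: the GC box GGGCGG, bound by Sp factors, and the E-box CAGGTG, bound by Snail and Zeb factors. No marked motifs overlap.
B4galnt3: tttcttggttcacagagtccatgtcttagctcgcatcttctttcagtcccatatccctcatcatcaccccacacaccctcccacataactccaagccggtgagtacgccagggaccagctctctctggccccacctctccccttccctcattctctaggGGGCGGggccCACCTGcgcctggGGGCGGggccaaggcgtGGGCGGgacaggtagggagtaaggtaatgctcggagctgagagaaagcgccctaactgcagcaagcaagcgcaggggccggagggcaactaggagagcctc
B4galnt4: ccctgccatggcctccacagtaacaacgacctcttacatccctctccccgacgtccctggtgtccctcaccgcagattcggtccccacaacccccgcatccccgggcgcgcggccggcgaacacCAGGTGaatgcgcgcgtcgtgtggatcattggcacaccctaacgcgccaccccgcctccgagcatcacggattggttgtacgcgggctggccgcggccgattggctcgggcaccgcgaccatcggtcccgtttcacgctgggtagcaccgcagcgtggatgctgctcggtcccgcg
Chst11: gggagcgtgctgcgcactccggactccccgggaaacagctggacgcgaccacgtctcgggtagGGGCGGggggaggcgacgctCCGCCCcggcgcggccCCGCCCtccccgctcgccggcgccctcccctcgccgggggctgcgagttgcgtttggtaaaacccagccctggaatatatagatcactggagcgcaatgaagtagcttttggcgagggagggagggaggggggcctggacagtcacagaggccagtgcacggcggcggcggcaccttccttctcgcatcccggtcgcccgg
Chst14: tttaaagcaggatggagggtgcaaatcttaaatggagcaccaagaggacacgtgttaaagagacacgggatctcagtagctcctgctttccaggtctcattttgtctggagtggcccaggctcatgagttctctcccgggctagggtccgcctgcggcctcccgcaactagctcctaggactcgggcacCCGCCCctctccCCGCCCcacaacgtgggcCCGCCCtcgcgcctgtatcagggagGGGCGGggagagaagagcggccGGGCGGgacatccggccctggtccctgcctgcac
The B4galnt3 window lies at chr6:120294848-120295147 on the minus strand and holds 12 CpG dinucleotides, 3 GC boxes and 1 E-box. That of B4galnt4, at chr7:141060728-141061027 on the plus strand, holds 37 CpG, 1 E-box and no GC box. Chst11, at chr10:82985247-82985546 on the plus strand, has 34 CpG and 3 GC boxes. Chst14, at chr2:118926247-118926546 on the plus strand, has 18 CpG and 5 GC boxes. Over all 81 member windows the median was 21 CpG, against 7 over all 32851 windows of the reference. Those reference windows cover 27025 genes and were not limited to the 9539 genes with values on the arrays. A GC box stood in 60.5% of member windows and in 35.7% of all windows, and the E-box in 17.3% and 20.2%. The octamer ATGCAAAT, the sequence Oct4 is named for binding, was in 0 of the 81 member windows and in 1.7% of all windows. These matches describe letters in the windows and were not tested against the expression differences.

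Chondroitin and dermatan sulfate enzymes had the lowest median difference of the 13 role groups, at -2.10 in iPS cells and -2.63 in ES cells. All 7 were called lower in ES cells (100%, against 32.1% of all genes) and 6 of 7 in iPS cells (85.7%, against 29.6%). Csgalnact1, which starts a chondroitin chain on the linker, had levels of 6.01, 6.11 and 6.05 on iPS arrays, 5.91, 5.32 and 5.46 on ES arrays, 10.17, 10.01 and 10.05 on day-1 arrays and 10.38, 10.49 and 10.89 on fibroblast arrays. Pluripotent arrays were all low and the other arrays all high, with no overlap. Its difference was -4.52 ± 0.15 in iPS cells, 23.0-fold lower, and -5.02 ± 0.15 in ES cells, 32.4-fold lower (adjusted p = 7.8e-12 and 2.2e-12, limma).

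Chst14, the sulfotransferase that adds sulfate to dermatan, had levels of 7.49, 7.49 and 7.43 on iPS arrays, 6.43, 6.83 and 6.60 on ES arrays, 10.69, 10.54 and 10.48 on day-1 arrays and 10.64, 10.75 and 10.81 on fibroblast arrays. The ES arrays were lowest, the iPS arrays stood just above them, and day-1 and fibroblast arrays overlapped at the top. Chst11, which sulfates the N-acetylgalactosamine of chondroitin, had 7.24, 6.99 and 6.98 on iPS arrays, 6.74, 6.97 and 6.57 on ES arrays, 9.64, 9.78 and 9.69 on day-1 arrays and 9.80, 9.85 and 9.70 on fibroblast arrays. Here the iPS and ES arrays were close, with the highest ES array just under the lowest iPS array. The differences were -3.27 ± 0.10 in iPS cells and -4.12 ± 0.10 in ES cells for Chst14, and -2.71 ± 0.10 in iPS cells and -3.02 ± 0.10 in ES cells for Chst11. Chst12, a second enzyme of the Chst11 kind, fell, with differences of -1.92 in iPS cells and -2.58 in ES cells. The chain polymerase Chsy1 fell, with differences of -1.76 in iPS cells and -1.72 in ES cells.

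Of the enzymes that lay the short sugar linker between core protein and chain, 1 of 5 fell in iPS cells and 3 of 5 in ES cells. The share that fell was below the 29.6% of all genes in iPS cells and above the 32.1% in ES cells. Xylt1, the xylosyltransferase that starts the linker, differed by -2.22 ± 0.07 in iPS cells and by -2.22 ± 0.07 in ES cells. Xylt2, its paralog, was not called, at -0.29 ± 0.10 in iPS cells and -0.58 ± 0.10 in ES cells. B4galt7, which adds the first galactose, differed by -0.91 ± 0.09 in iPS cells, which was not called, and fell by 1.28 in ES cells, -0.95 and no longer called with centred arrays. Heparan sulfate enzymes, the next group, had 7 of 11 lower (63.6%, against 29.6% of all genes) and 1 higher (9.09%, against 21.8%) in iPS cells. In ES cells 8 of 11 were lower (72.7%, against 32.1%). Extl3, which starts the heparan sulfate chain, fell, with differences of -2.52 in iPS cells and -2.38 in ES cells. The chain polymerase subunit Ext1 fell, with differences of -1.79 in iPS cells and -1.06 in ES cells, the second ending as a call at -0.72 with centred arrays and -0.90 with quantile normalization. Ndst2, which replaces acetyl groups with sulfate on the chain, fell, with differences of -2.17 in iPS cells and -2.04 in ES cells. The exception was Extl1, a relative of Extl3, which rose by 1.02 ± 0.12 in iPS cells and differed by 0.61 ± 0.12 in ES cells. The rise in iPS cells was 0.929 without iPS replicate 2 and 0.868 without fibroblast replicate 3, neither called.

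Hs6st2, a heparan sulfate sulfotransferase, was the member of that group with the largest spread between groups. Its levels were 6.89, 6.75 and 6.86 on iPS arrays, 5.86, 5.98 and 6.02 on ES arrays, 9.90, 9.86 and 10.01 on day-1 arrays and 9.09, 8.83 and 8.96 on fibroblast arrays. None of the 4 groups overlapped, and day-1 cells were highest. It was -2.12 ± 0.08 in iPS cells and -3.00 ± 0.08 in ES cells against fibroblasts, and -3.09 ± 0.08 in iPS cells against day-1 cells. Hs2st1, which sulfates iduronic acid, did not pass the 2-fold limit, at -0.59 ± 0.08 in iPS cells and -0.54 ± 0.08 in ES cells. Both measured hyaluronan synthases fell in iPS cells, as did 29.6% of all genes. In ES cells 1 of them, Has2, fell, as did 32.1% of all genes. Has2 differed by -2.21 in iPS cells and -2.77 in ES cells. Has1 differed by -1.13 ± 0.12 in iPS cells, a call that ended at -0.89 with centred arrays, and by -0.51 ± 0.12 in ES cells, where it was not called. The ES arrays of Has2 were uneven, at 7.90, 8.90 and 7.62, and replicate 2, the highest, also had the highest fibroblast marker sum of the ES arrays. Chst2, which sulfates N-acetylglucosamine, fell, with differences of -2.52 in iPS cells and -2.70 in ES cells.

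Polypeptide N-acetylgalactosaminyltransferases, which start mucin-type O-glycans, moved in both directions. Of 11 Galnt genes 1 rose and 3 fell in iPS cells (27.3% lower, against 29.6% of all genes), and 4 fell in ES cells (36.4%, against 32.1%), so the share that fell was near that of all genes. Galnt17 had levels of 6.40, 5.84 and 6.27 on iPS arrays, 5.92, 5.58 and 5.51 on ES arrays, 9.15, 9.08 and 9.01 on day-1 arrays and 9.54, 9.92 and 9.85 on fibroblast arrays. Day-1 arrays were already below fibroblast arrays without overlap, at -0.69 ± 0.15, while the pluripotent arrays were far lower and overlapped each other. The differences were -3.60 ± 0.15 in iPS cells and -4.10 ± 0.15 in ES cells. Galnt13 fell, with differences of -2.02 in iPS cells and -1.90 in ES cells. Against this direction stood Galnt6, with 8.10, 7.81 and 7.87 on iPS arrays, 6.01, 5.93 and 6.17 on ES arrays, 5.29, 5.45 and 5.46 on day-1 arrays and 5.15, 5.32 and 5.23 on fibroblast arrays. It was high on the iPS arrays alone, and rose by 2.69 ± 0.09 in iPS cells, while the difference in ES cells was 0.80 ± 0.09, not called, and 1.14 and called with centred arrays.

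Sialyltransferases of glycoproteins fell in 5 of 10 cases in iPS cells, against 29.6% of all genes. In ES cells 6 of 10 fell, against 32.1%. In iPS cells 1 rose, against 21.8% of all genes, and in ES cells 2 rose, against 23.4%. Neither higher share was above that of all genes. St3gal1 caps the core O-glycan with sialic acid. Its levels were 6.56, 6.77 and 6.48 on iPS arrays, 6.61, 6.99 and 6.60 on ES arrays, 10.29, 10.21 and 10.20 on day-1 arrays and 10.34, 10.07 and 10.08 on fibroblast arrays. The pluripotent arrays overlapped each other, as did the day-1 and fibroblast arrays. The differences were -3.56 ± 0.11 in iPS cells and -3.43 ± 0.11 in ES cells. St3gal2 fell, with differences of -2.36 in iPS cells and -2.90 in ES cells. So did St3gal3, at -1.69 in iPS cells and -2.44 in ES cells. Another sialyltransferase, St6galnac3, moved the other way and rose by 1.60 ± 0.12 in iPS cells and 1.87 ± 0.12 in ES cells. St8sia6, which builds disialic acid, rose by 1.15 ± 0.11 in ES cells and differed by 0.84 ± 0.11 in iPS cells, 1.08 and called with centred arrays.

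Fut9, the fucosyltransferase that makes Lewis x, had the largest increase of any member in iPS cells. It measured 8.0, 7.96 and 8.06 on iPS arrays, 7.77, 7.32 and 7.79 on ES arrays, 4.28, 4.69 and 4.42 on day-1 arrays and 4.82, 5.0 and 4.88 on fibroblast arrays. The iPS arrays were the highest and the day-1 arrays the lowest, and no group overlapped another. The rise was 3.10 ± 0.13 in iPS cells, 8.60-fold, and 2.72 ± 0.13 in ES cells (adjusted p = 5.3e-11 and 1.3e-10, limma). Fut4, another enzyme able to form Lewis x, differed by -0.87 ± 0.14 in iPS cells and -0.42 ± 0.14 in ES cells. Fut10 fell by 1.45 in ES cells, and in iPS cells its difference was -0.51 ± 0.08.

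The measured transferases that extend chains with galactose and hexosamines numbered 11. In iPS cells 4 rose (36.4%, against 21.8% of all genes) and 4 fell (36.4%, against 29.6%). In ES cells 4 rose (36.4%, against 23.4%) and 3 fell (27.3%, against 32.1%). B4galnt4 and B4galnt3 add N-acetylgalactosamine to N-acetylglucosamine in place of galactose, forming the LacdiNAc unit. B4galnt4 had 8.24, 8.25 and 8.36 on iPS arrays, 8.60, 8.44 and 8.66 on ES arrays, 5.99, 5.95 and 5.96 on day-1 arrays and 5.68, 5.56 and 5.41 on fibroblast arrays. B4galnt3 had 8.66, 8.63 and 8.60 on iPS arrays, 8.07, 8.03 and 8.15 on ES arrays, 6.14, 6.37 and 6.26 on day-1 arrays and 6.09, 6.10 and 5.96 on fibroblast arrays. Both genes were high on all pluripotent arrays and low on the rest, with ES cells above iPS cells for B4galnt4 and iPS cells above ES cells for B4galnt3. The rises were 2.73 ± 0.08 in iPS cells and 3.01 ± 0.08 in ES cells for B4galnt4, and 2.58 ± 0.07 in iPS cells and 2.03 ± 0.07 in ES cells for B4galnt3. B4galnt2, a further gene of this role group, differed by 0.67 ± 0.09 in iPS cells and 0.71 ± 0.09 in ES cells, neither called. With centred arrays it was 1.04 and called in ES cells.

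B3gnt2, the main enzyme that extends poly-N-acetyllactosamine, had 8.36, 8.38 and 8.44 on iPS arrays, 9.27, 9.16 and 8.82 on ES arrays, 7.40, 7.05 and 7.41 on day-1 arrays and 6.96, 7.06 and 7.16 on fibroblast arrays. B3gnt7, which works on keratan sulfate chains, had 7.47, 7.34 and 7.62 on iPS arrays, 8.59, 8.25 and 8.65 on ES arrays, 6.67, 6.88 and 6.81 on day-1 arrays and 6.33, 6.51 and 6.20 on fibroblast arrays. For both the ES arrays were highest and the iPS arrays next. B3gnt2 rose by 1.33 ± 0.12 in iPS cells and 2.03 ± 0.12 in ES cells, while B3gnt7 rose by 1.13 ± 0.12 in iPS cells and 2.15 ± 0.12 in ES cells. Of the beta4-galactosyltransferases of this group, B4galt1 and B4galt4 fell: B4galt1 differed by -1.04 in iPS cells and -1.76 in ES cells, while B4galt4 differed by -1.16 in iPS cells and -1.47 in ES cells. In iPS cells both calls ended with centred arrays, at -0.80 for B4galt1 and -0.92 for B4galt4, and that of B4galt1 also with quantile normalization, at -0.85. B4galt3 was not called, at 0.04 ± 0.07 in iPS cells and -0.52 ± 0.07 in ES cells. B3gnt9 fell, with differences of -2.22 in iPS cells and -2.98 in ES cells.

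Among N-glycan enzymes 1 of 6 rose and 1 fell in iPS cells, against 21.8% and 29.6% of all genes. In ES cells 1 rose and 3 fell, against 23.4% and 32.1%. Of these shares only the lower share in ES cells was above that of all genes. The branching gene Mgat4a was the one called higher in both iPS and ES cells. It had 6.59, 6.40 and 6.84 on iPS arrays, 6.48, 6.87 and 6.62 on ES arrays, 5.26, 4.88 and 5.14 on day-1 arrays and 5.20, 5.10 and 5.48 on fibroblast arrays. The pluripotent arrays overlapped each other above the rest, and the rise was 1.35 ± 0.14 in iPS cells and 1.40 ± 0.14 in ES cells. Mgat5b, another branching gene, was above fibroblasts but not called, at 0.86 ± 0.08 in iPS cells and 0.85 ± 0.08 in ES cells. With centred arrays it was called at 1.10 in iPS cells and 1.19 in ES cells. The paralog Mgat4b differed by -0.18 ± 0.07 in iPS cells and -0.58 ± 0.07 in ES cells. Mgat2, needed for complex N-glycans, fell, with differences of -1.12 in iPS cells and -1.04 in ES cells. Both calls ended with centred arrays, at -0.87 in iPS cells and -0.70 in ES cells. They ended with quantile normalization too, at -0.93 in iPS cells and -0.83 in ES cells.

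Glycosphingolipid enzymes split as well. In iPS cells 2 of 8 were higher and 4 lower, against 21.8% and 29.6% of all genes. In ES cells 2 were higher and 5 lower, against 23.4% and 32.1%. The higher shares were near those of all genes, and the lower shares were above them. Ugcg, which makes glucosylceramide and so opens the pathway, fell, with differences of -2.01 in iPS cells and -2.37 in ES cells. The next step, lactosylceramide, can be made by B4galt5 or B4galt6. B4galt5 fell, with differences of -1.59 in iPS cells and -1.91 in ES cells, while B4galt6 rose by 1.16 ± 0.09 in iPS cells and differed by 0.54 ± 0.09 in ES cells. Beyond it, B4galnt1, the entry to complex gangliosides, fell, with differences of -2.63 in iPS cells and -3.01 in ES cells. B3galnt1, which forms globoside, fell, with differences of -1.79 in iPS cells and -1.58 in ES cells. B3gnt5, which opens the lacto series, rose by 1.93 ± 0.11 in iPS cells and 1.20 ± 0.11 in ES cells.

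**Figure D2:**
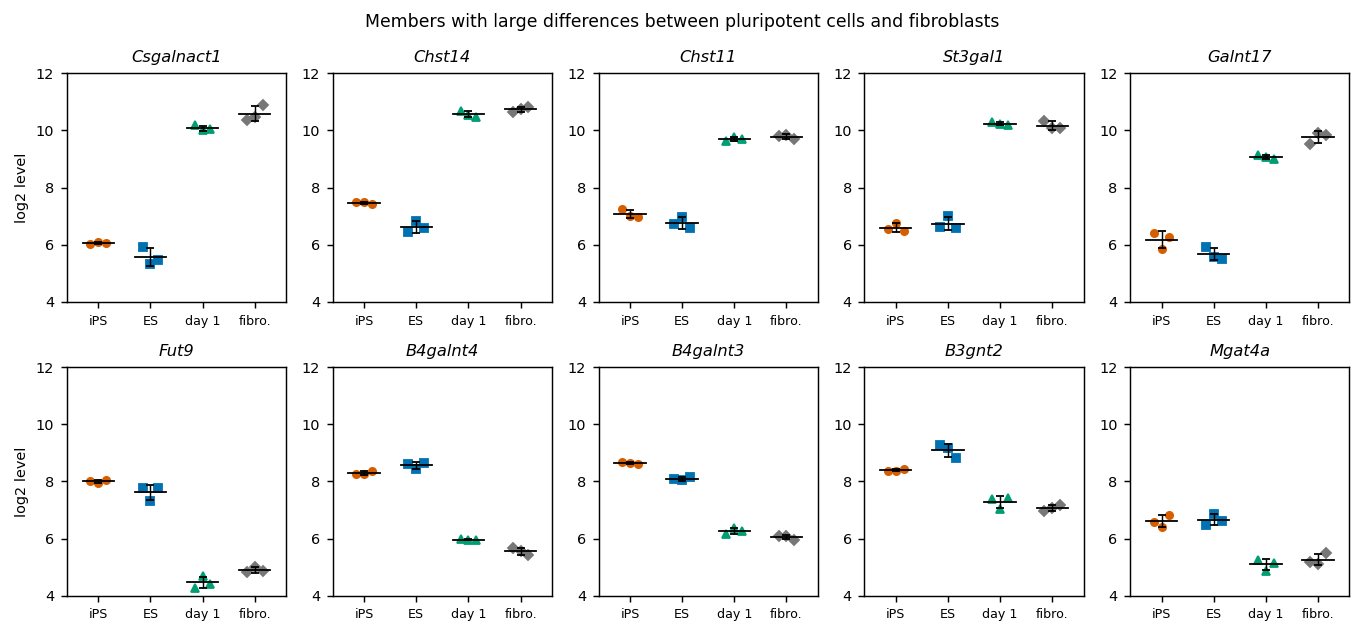
The vertical axis is the log2 level on each array for 10 members, 5 lower (top row) and 5 higher (bottom row) in pluripotent cells; points are the 3 arrays of a group, the long line is the mean and the error bar is 1 SD. In each upper panel the iPS and ES arrays lie below the day-1 and fibroblast arrays, as for Csgalnact1 at 5.32 to 6.11 against 10.01 to 10.89, and in each lower panel they lie above them.

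After 1 day of induction in ES medium few members had moved by 2-fold, and those that had were mostly higher than in fibroblasts. Against fibroblasts 5 of 83 rose (6.02%, against 3.46% of all genes) and 1 fell (1.20%, against 4.33%). The median member differed by 0.17, against 0.05 for all genes. Induction, medium and the source of the fibroblasts changed together between these groups and cannot be told apart. The fibroblast marker sum was lower in day-1 cells, with 3 of 8 markers called lower. The macrophage sum was lower too, with 3 of 6 called lower and 1, C1qb, called higher.

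Gcnt4, which branches O-glycans, had the largest rise. It read 6.46, 6.61 and 6.60 on iPS arrays, 6.05, 6.26 and 5.93 on ES arrays, 8.63, 8.68 and 8.58 on day-1 arrays and 6.48, 6.74 and 6.84 on fibroblast arrays. Day-1 arrays stood far above the other 3 groups, and the difference from fibroblasts was 1.95 ± 0.10 (adjusted p = 1.1e-08, limma). B3gnt5, the lacto-series enzyme named above, had 8.15, 8.03 and 7.90 on iPS arrays, 7.22, 7.16 and 7.51 on ES arrays, 7.90, 7.92 and 8.04 on day-1 arrays and 6.19, 5.93 and 6.16 on fibroblast arrays. Day-1 arrays overlapped iPS arrays, and the rise over fibroblasts was 1.86 ± 0.11. For the difference between iPS and day-1 cells, 0.07 ± 0.11, the adjusted p was 0.51.

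Ndst3, a relative of Ndst2, had 4.83, 4.67 and 4.37 on iPS arrays, 4.84, 4.48 and 4.90 on ES arrays, 7.44, 7.29 and 7.26 on day-1 arrays and 6.06, 6.18 and 5.74 on fibroblast arrays. Chsy3, a chondroitin polymerase subunit, had 6.46, 6.40 and 6.47 on iPS arrays, 6.0, 6.05 and 6.13 on ES arrays, 8.94, 8.61 and 8.55 on day-1 arrays and 7.18, 7.72 and 7.33 on fibroblast arrays. Both were highest in day-1 cells and lowest in pluripotent cells, a rise of 1.34 ± 0.15 for Ndst3 and of 1.29 ± 0.13 for Chsy3 over fibroblasts. Galnt9 had 6.18, 5.98 and 5.80 on iPS arrays, 6.57, 6.18 and 6.18 on ES arrays, 6.98, 7.0 and 7.0 on day-1 arrays and 6.02, 6.23 and 5.64 on fibroblast arrays. Its rise of 1.03 ± 0.15 lay at the limit of the call, and it was 0.87 without fibroblast replicate 3 and 0.90 with quantile normalization, both no longer called.

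Chst15, which adds a further sulfate to chondroitin, was the member that fell. Its levels were 6.60, 6.98 and 6.87 on iPS arrays, 6.13, 6.18 and 6.55 on ES arrays, 7.15, 7.39 and 7.28 on day-1 arrays and 8.60, 9.06 and 9.07 on fibroblast arrays. Day-1 arrays lay between pluripotent and fibroblast arrays, nearer the pluripotent arrays in level, at -1.64 ± 0.15 against fibroblasts (adjusted p = 1.2e-06, limma). Hs3st1, which adds the sulfate used by antithrombin, differed by -0.98 ± 0.18, just short of the limit.

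**Figure D3:**
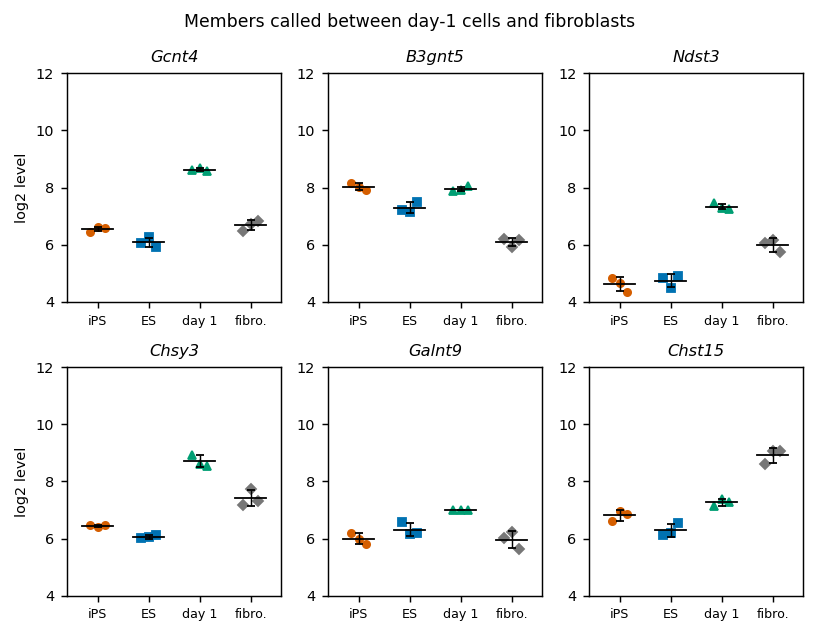
The vertical axis is the log2 level on each array for the 6 members called between day-1 cells and fibroblasts; points are the 3 arrays of a group, the long line is the mean and the error bar is 1 SD. Gcnt4, Ndst3, Chsy3 and Galnt9 peak in day-1 cells, B3gnt5 in day-1 cells reaches the iPS level of 7.90 to 8.15, and Chst15 is highest in fibroblasts.

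By adjusted p alone, day-1 cells were above fibroblasts for 33 members (39.8%, against 31.1% of all genes) and below for 16 (19.3%, against 26.0%). With no overlap of arrays, day-1 cells were the highest of the 4 groups for 27 members (32.5%, against 14.4% of all genes). That count was 25 with quantile normalization (30.1%, against 14.4%) and 26 with centred arrays (31.3%, against 13% of all genes). It also depends on the iPS and ES levels, which were low for most members, and it includes Gcnt4, Ndst3, Chsy3 and Galnt9. Day-1 cells were the lowest group for 1 member, Fut9 (1.20%, against 8.01% of all genes). ES cells were the lowest group for 35 members (42.2%, against 20.9% of all genes). The number was 30 with quantile normalization (36.1%, against 18.9%) and 27 with centred arrays (32.5%, against 16.7%). Fibroblasts were highest for 16 members (19.3%, against 21.3%). Whether these shares differ from those of all genes was not tested.

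Between iPS and day-1 cells, 7 members were higher in iPS cells (8.43%, against 17.6% of all genes) and 42 lower (50.6%, against 26.6%). The day-1 cells came from mice made with iPS cells, so this comparison does not follow them to a later time. Passage differed too, at 10 for iPS cells and 3 for day-1 cells. The median member differed by -1.0, against -0.34 for all genes. The day-1 arrays also serve in the comparison with fibroblasts, and the iPS arrays in 2 others. The highest differences were those of Fut9 at 3.54 ± 0.13, Galnt6 at 2.53 ± 0.09, B4galnt3 at 2.37 ± 0.07, B4galnt4 at 2.32 ± 0.08 and Mgat4a at 1.52 ± 0.14. At the other end were Csgalnact1 at -4.02 ± 0.15, St3gal1 at -3.63 ± 0.11, Chst14 at -3.10 ± 0.10, Hs6st2 at -3.09 ± 0.08 and Galnt17 at -2.91 ± 0.15. By role, iPS cells were lower than day-1 cells for 6 of 7 chondroitin and dermatan sulfate enzymes (85.7%, against 26.6% of all genes). The same held for 7 of 11 heparan sulfate enzymes (63.6%), 7 of 11 Galnt genes (63.6%) and 7 of 10 sialyltransferases of glycoproteins (70.0%). Gcnt4, which stood high in day-1 cells, differed by -2.07 ± 0.10 in iPS cells.

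The iPS and ES cells differed by 2-fold in few members. In iPS cells 3 were higher (3.61%, against 4.44% of all genes) and 2 lower (2.41%, against 2.45%). By adjusted p alone 42 members were higher in iPS cells (50.6%, against 30.0% of all genes) and 13 lower (15.7%, against 27.7%). The median member was 0.30 higher in iPS cells, against 0.01 for all genes, and 0.21 higher with centred arrays, against -0.07 for all genes. The fibroblast marker sum was also higher in iPS cells than in ES cells, with Postn, Col1a2 and Col1a1 called higher and Dcn called lower, and 1 of 8 pluripotency markers, Zfp42, was called lower. Their part in the result was not tested. Strain, passage (10 for iPS cells, 20 for ES cells), the origin of the line and the recorded removal of feeders differed together here. With 1 line in each group they cannot be told apart.

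Galnt6, given above for all arrays, had the largest difference at 1.89 ± 0.09 (adjusted p = 1.2e-08, limma), with no overlap between iPS and ES arrays. B3glct adds glucose to O-fucose on thrombospondin repeats. Its levels were 8.80, 8.63 and 8.57 on iPS arrays, 7.41, 7.54 and 7.38 on ES arrays, 9.70, 9.44 and 9.63 on day-1 arrays and 9.30, 9.52 and 9.35 on fibroblast arrays. The iPS arrays stood between the ES and fibroblast arrays, 1.22 ± 0.09 above the ES mean. Galnt18 had 6.70, 6.80 and 6.36 on iPS arrays, 5.22, 6.24 and 5.14 on ES arrays, 8.94, 9.24 and 9.13 on day-1 arrays and 8.66, 8.04 and 8.12 on fibroblast arrays. ES replicate 2 stood above the other ES arrays, and the difference of 1.09 ± 0.25 (adjusted p = 0.0025, limma) was 0.996 without iPS replicate 2, 0.932 without ES replicate 1 and 0.890 without ES replicate 3, none of them called.

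St8sia1, the sialyltransferase that makes disialylated gangliosides, was lower in iPS cells. It had 6.09, 6.15 and 6.15 on iPS arrays, 7.57, 7.50 and 7.33 on ES arrays, 5.58, 5.77 and 5.79 on day-1 arrays and 5.85, 5.52 and 5.30 on fibroblast arrays. It was high on the ES arrays alone, and the difference was -1.34 ± 0.12 (adjusted p = 1.3e-06, limma). B3gnt7, given above, was -1.02 ± 0.12, and -0.951 without iPS replicate 2, -0.972 without ES replicate 1 and -0.943 without ES replicate 3, each short of the limit. The iPS arrays of B3gnt7 still lay below the ES arrays without overlap. Just short of the limit on the higher side were the sialyltransferases St3gal5 at 0.98 ± 0.10 and St3gal4 at 0.97 ± 0.11 and the fucosyltransferase Fut10 at 0.94 ± 0.08, which were not called.

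**Figure D4:**
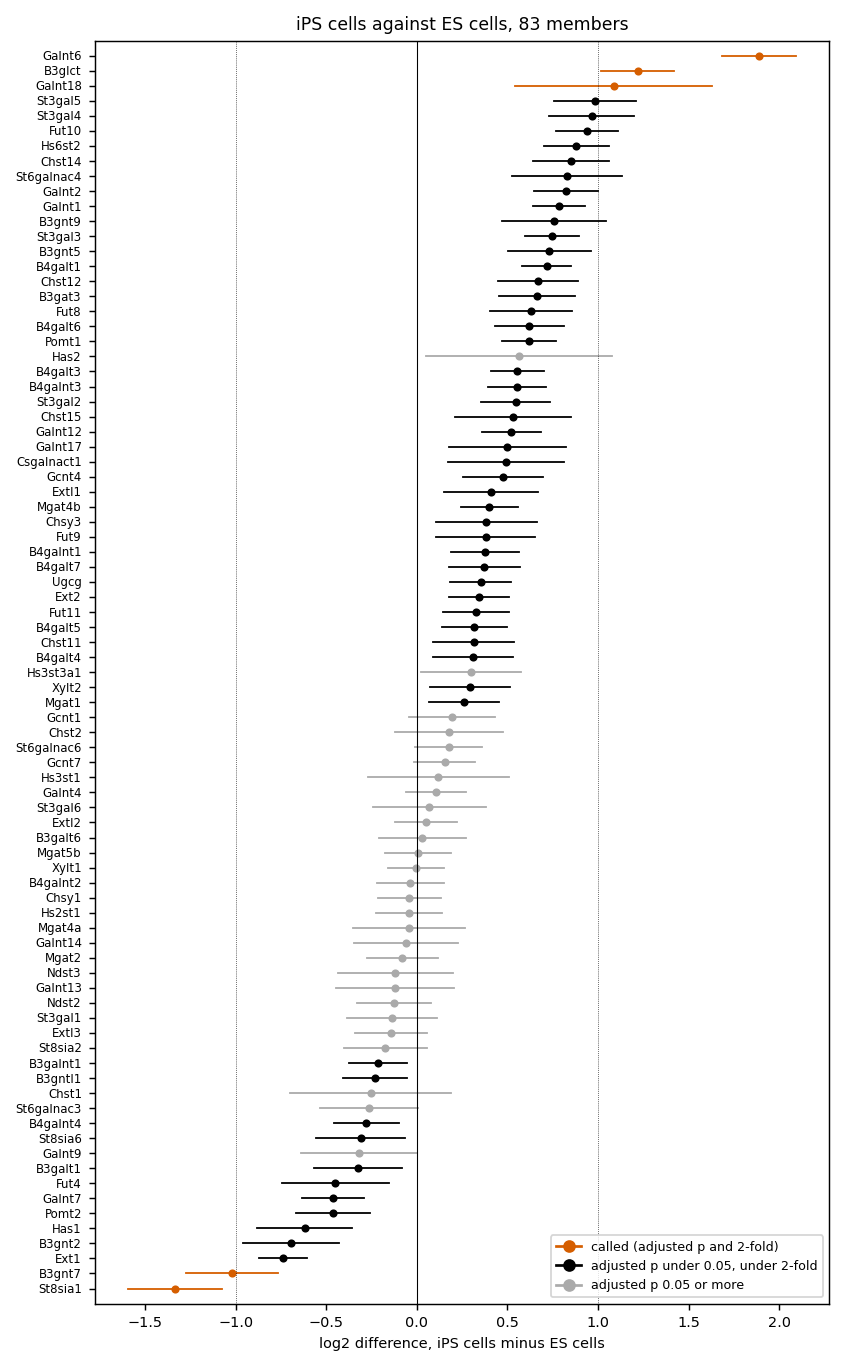
Each row is 1 of the 83 members in order of its log2 difference, iPS cells minus ES cells, with its 95% interval (3 arrays per group); orange marks the 5 called members, black those with an adjusted p under 0.05 but under 2-fold, and grey the rest. Galnt6 at 1.89 and St8sia1 at -1.34 are the ends of the range, and 42 of the members with an adjusted p under 0.05 lie right of 0 against 13 left of it.

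Genes of the same pathways outside the symbol pattern were counted from 4 lists. Of proteoglycan core proteins 22 of 30 were measured, and 1 rose and 15 fell in iPS cells (68.2% lower, against 29.6% of all genes), with the same counts in ES cells (68.2%, against 32.1%). This list holds Dcn and Lum, which are also among the 8 fibroblast markers. Tgfbr3, the betaglycan core protein, differed by -4.22 ± 0.07 in iPS cells and -3.97 ± 0.07 in ES cells, while Col18a1, a basement membrane core protein, rose by 1.22 ± 0.12 in iPS cells and 1.73 ± 0.12 in ES cells. Of enzymes that modify or break down heparan sulfate, chondroitin sulfate and hyaluronan, 16 of 21 were measured. In iPS cells 11 were called lower (68.8%, against 29.6% of all genes) and in ES cells 14 (87.5%, against 32.1%). Cemip, which breaks down hyaluronan, fell, with differences of -3.90 in iPS cells and -5.35 in ES cells.

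Genes that supply sugar nucleotides and activated sulfate had 26 of 39 measured. In iPS cells 1 rose and 9 fell (34.6%, against 29.6% of all genes), a share near that of all genes, and in ES cells 2 rose and 11 fell (42.3%, against 32.1%). Papss2, which makes the sulfate donor, fell, with differences of -2.21 in iPS cells and -3.59 in ES cells. Gne, which opens sialic acid synthesis, fell, with differences of -1.80 in iPS cells and -1.83 in ES cells. Of other N- and O-glycan transferases and trimming enzymes 21 of 35 were measured, with 3 higher and 9 lower in iPS cells (42.9% lower, against 29.6% of all genes) and 2 higher and 11 lower in ES cells (52.4% lower, against 32.1%). Large2, which extends the glycan of dystroglycan, rose by 2.29 ± 0.11 in iPS cells and 2.21 ± 0.11 in ES cells.

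At day 1, 4.33% of all genes were called lower than in fibroblasts and 3.46% higher. The core proteins had 1 higher and 3 lower in day-1 cells (13.6% lower). Lower too were 1 glycan transferase and 1 modifying or degrading enzyme (4.76% and 6.25% of their lists). Of the donor genes limma called 0 in day-1 cells, with 7 higher and 7 lower at an unadjusted p under 0.05. A4galt, which makes globotriaosylceramide, differed by -2.24 ± 0.12 in day-1 cells. Between iPS and ES cells, iPS cells were higher for 4 core proteins and lower for 1. They were also higher for 2 glycan transferases, 2 modifying or degrading enzymes and 1 donor gene. The higher shares of the lists were 18.2%, 9.52%, 12.5% and 3.85%, in the same order, against 4.44% of all genes. These included A4galt at 1.70 ± 0.12 and Papss2 at 1.38 ± 0.14, both lower in pluripotent cells than in fibroblasts. Against day-1 cells, iPS cells had 2 core proteins higher and 14 lower, and 3 glycan transferases higher and 8 lower. They had 9 modifying or degrading enzymes lower, and 2 donor genes higher and 11 lower. Of all genes 17.6% were called higher and 26.6% lower in that comparison, and the lower shares of the lists were 63.6%, 38.1%, 56.2% and 42.3%, in the same order.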

How the data were processed

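The deposited table held log2 signals of the authors for 12 Affymetrix arrays, 3 in each of 4 groups; RNA was extracted with Trizol and labelled for whole-transcript arrays, per the labels' protocols. The background correction, the summary of probes, the normalization and the rule that left 10360 varying probe sets are not given in the sources used here. A value combines binding over many probes, so levels were compared between arrays and never between genes. Probe sets with 1 gene symbol (9542) were kept, 344 with several and 474 with none were left out, and the probe set with the highest mean stood for each of 3 genes with more than 1.

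Group means were fitted to the log2 values over all 4 groups with limma 3.58.1 in R 4.3.3 (lmFit, eBayes), after a test on simulated data, and p-values were adjusted over 9539 genes by the Benjamini-Hochberg method. Alternatives were quantile normalization, arrays centred on a common median, removal of the dimmest 25% of genes, limma's treat against 2-fold, the adjusted p alone, a replicate block, and each array left out. The members, their roles and the lists were chosen with earlier results of these data known. Values per array are given for up to 5 highest and 5 lowest called members of each comparison whose groups do not overlap, for each member called in day-1 cells, and for members that go against their family. The number of arrays limits the precision.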

Additional observations from a re-analysis of the deposited data

Results flagged for a closer look

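For 5 members the change from fibroblasts differed between iPS and ES cells by 2-fold or more, tested as iPS cells minus ES cells with limma and adjusted over all 9539 genes. Galnt6 differed by 1.89, B3glct by 1.22 and Galnt18 by 1.09, all higher in iPS cells. St8sia1 differed by -1.34 and B3gnt7 by -1.02, both lower in iPS cells. In each case the 3 iPS arrays and the 3 ES arrays did not overlap. Galnt18 and B3gnt7 fell short of the 2-fold limit when iPS replicate 2, ES replicate 1 or ES replicate 3 was left out. Strain and passage also differed between the iPS and ES lines, and their part was not tested.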

How the results depend on the processing

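Members were tested in 5 comparisons, and no called member changed direction under any alternative run. Counts of members called are given as higher and lower, against those reported. With each array left out in turn, counts ran over 4 to 7 higher and 1 to 2 lower for day-1 cells against fibroblasts (5 and 1), 11 to 12 and 34 to 39 for iPS cells against fibroblasts (12 and 36), 10 and 41 to 44 for ES cells against fibroblasts (10 and 43), 2 to 5 and 1 to 2 for iPS against ES cells (3 and 2), and 6 to 7 and 42 to 43 for iPS against day-1 cells (7 and 42). The second lower call at day 1 was Hs3st1, without day-1 replicate 1, day-1 replicate 3 or fibroblast replicate 2. The iPS count against ES cells rose to 5 without iPS replicate 1, with St3gal4 and St3gal5 added. Without the dimmest 25% of genes 54 members were tested, and the higher counts were 2 at day 1, 5 in ES cells, 6 in iPS cells and 3 for iPS against day-1 cells, with 1 lower for iPS against ES cells. By adjusted p alone the counts were 33 and 16 at day 1 (39.8% and 19.3%, against 31.1% and 26.0% of all genes). For ES cells they were 19 and 62 (22.9% and 74.7%, against 43.2% and 51.7%). For iPS cells they were 20 and 60 (24.1% and 72.3%, against 42.0% and 52.2%). They were 42 and 13 for iPS against ES cells (50.6% and 15.7%, against 30.0% and 27.7%). For iPS against day-1 cells they were 17 and 62 (20.5% and 74.7%, against 40.9% and 51.9%). With treat, which tests against 2-fold, 2 were higher at day 1, and 1 higher and 0 lower for iPS against ES cells. The replicate block left every count of members as reported: 5 and 1, 12 and 36, 10 and 43, 3 and 2, and 7 and 42. Each group held the same replicate numbers, so the block could change standard errors but no difference. Same-numbered arrays did not deviate together (r of -0.208 to 0.064 over 18 pairs), so they share only a number. With centred arrays the share of higher calls among all called genes was 55.5% for iPS cells, 58.1% for ES cells and 54.4% for iPS against day-1 cells, against 42.4%, 42.2% and 39.8% as deposited. For iPS against ES cells it was 52.3%, against 64.4%. Why counts moved with the scaling was not tested. The 3 arrays a group and dim probe sets limit what could be called.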

Other observations

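One probe set carried 2 symbols, Ccdc24 and B4galt2, a galactosyltransferase of the families above, and was left out of the members because its signal cannot be given to 1 gene. Its levels were 7.42, 7.19 and 7.28 on iPS arrays, 7.03, 6.86 and 7.02 on ES arrays, 8.50, 8.46 and 8.40 on day-1 arrays and 8.22, 8.39 and 8.33 on fibroblast arrays. Day-1 arrays were highest and ES arrays lowest, with no overlap between groups.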
